A study of Mus musculus with 15 samples.

Results

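The circadian clock genes Clock, Arntl, Per1, Per2, Per3, Cry1, Cry2 and Nr1d1 and the output genes Dbp and Tef, 10 in all, were followed across 15 mouse liver arrays. A probe set, the group of short oligonucleotides that the array reads as a unit, was assigned to a gene where its annotation named that gene alone. The 10 genes were among 18193 gene symbols so represented, and they had 24 probe sets, of which 18 reached a log2 value of 4 or more on at least 3 arrays. By the same filter 9 of the 10 genes (Nr1d1 being the exception) were among the 9482 genes that entered the tests. The antibiotic group held 4 arrays from male WT C3H/HeOuJ mice that drank ampicillin, neomycin and metronidazole (1 g/l of each) with vancomycin (500 mg/l) for 2 weeks from week 10. They then had the liver carcinogen diethylnitrosamine (DEN, 100 mg/kg) at week 12 and the hepatotoxin carbon tetrachloride (CCl4, 0.50 ml/kg) at weeks 13 and 15. The treated mutant group held 4 arrays from C3H/HeJ mice that carry the P712H change in Tlr4, the receptor for bacterial lipopolysaccharide, and had DEN and CCl4 without antibiotics. Replicate 1 of that group has no sex in its labels and the others were male. The treated WT group held 4 arrays from male C3H/HeOuJ mice with the same DEN and CCl4, and the untreated WT group held 3 from male C3H/HeOuJ mice with no treatment. All mice were 15 weeks old at death, and those of the 12 treated arrays died 48 hours after the last CCl4 dose. The mutant animals are a substrain of their own, so the Tlr4 change and the rest of the C3H/HeJ background cannot be told apart. There were no untreated mutant or untreated antibiotic arrays. The animals lived under a 12-hour light-dark cycle, and the hour of death is not given in the labels. The labels do not say that each array came from a separate animal, so p-values measure the spread between arrays, which may be technical.

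The circadian clock is a transcriptional loop that runs in nearly every cell. CLOCK and BMAL1, the protein of Arntl, bind together to E-box sequences and switch on the Per and Cry genes, whose proteins gather and then block CLOCK and BMAL1. The same pair drives Nr1d1, whose protein REV-ERB alpha represses Arntl through ROR elements, and it drives Dbp and Tef, whose proteins are activators of the PAR bZIP family that bind D-box sequences. In mouse liver Arntl peaks in near antiphase to Nr1d1 and Dbp, and the loop times bile acid, lipid and drug metabolism. The level of each gene in a sample therefore depends on the hour at which the tissue was taken. That hour is not given in the labels, so group differences in it cannot be told apart from those in treatment or substrain.

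Promoter sequences of the members were also described. Of the 10 genes 9 had a RefSeq window of 300 bases, from 250 bases before to 50 bases after an annotated start (build GRCm38.p6). These 9 genes had 14 windows. Both strands were searched for the E-box CACGTG, the E-prime box CACGTT, the D-box as TTATGTAA or TTACGTAA, and the ROR element as TAGGTCA or TGGGTCA, and no matches overlapped. An E-box was found in 4 member windows, 1 of Per1, 1 of Cry1 and 2 of Tef, against 7.15% of all 32851 mouse windows of this length. An E-prime box was found in 3 member windows, those of Cry1, Cry2 and Nr1d1, against 4.68% of all windows. The D-box was found in the Per3 window only, in 2 copies, against 1.06% of all windows, and the ROR element in 1 Arntl window, against 6.45%. The windows of Clock and Dbp held no match, and those of Per3 and Tef had no kind of match in common. A match is a description of letters and not a bound site. Whether matches go with shared movement of the genes was not tested. The windows below are those of Per3 and Tef, the pair whose levels moved most closely together within groups, of Cry1, which holds both kinds of E-box, and of Arntl, with the ROR element. Each runs 5′ to 3′ along the strand of the gene, and capitals mark the matches.
Per3, chr4:151044616-151044915, minus strand: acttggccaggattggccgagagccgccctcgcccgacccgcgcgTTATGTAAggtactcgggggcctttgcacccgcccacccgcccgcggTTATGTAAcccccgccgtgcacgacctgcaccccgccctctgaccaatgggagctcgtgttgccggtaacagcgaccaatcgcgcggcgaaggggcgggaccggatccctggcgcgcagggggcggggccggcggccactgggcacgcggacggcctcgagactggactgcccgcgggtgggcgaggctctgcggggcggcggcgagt
Tef, chr15:81802423-81802722, plus strand: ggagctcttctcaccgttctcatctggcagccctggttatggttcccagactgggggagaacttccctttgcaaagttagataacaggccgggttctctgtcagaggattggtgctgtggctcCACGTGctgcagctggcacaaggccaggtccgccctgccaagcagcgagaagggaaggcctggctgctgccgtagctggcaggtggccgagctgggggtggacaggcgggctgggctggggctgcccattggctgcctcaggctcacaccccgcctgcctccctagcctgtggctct
Cry1, chr10:85185005-85185304, minus strand: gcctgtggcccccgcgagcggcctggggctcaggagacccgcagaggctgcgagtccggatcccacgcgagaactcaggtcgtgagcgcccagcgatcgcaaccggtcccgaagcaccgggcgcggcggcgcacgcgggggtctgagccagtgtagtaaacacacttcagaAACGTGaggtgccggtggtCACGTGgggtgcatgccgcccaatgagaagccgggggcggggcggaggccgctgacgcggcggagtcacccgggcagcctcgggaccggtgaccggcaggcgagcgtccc
Arntl, chr7:113207261-113207560, plus strand: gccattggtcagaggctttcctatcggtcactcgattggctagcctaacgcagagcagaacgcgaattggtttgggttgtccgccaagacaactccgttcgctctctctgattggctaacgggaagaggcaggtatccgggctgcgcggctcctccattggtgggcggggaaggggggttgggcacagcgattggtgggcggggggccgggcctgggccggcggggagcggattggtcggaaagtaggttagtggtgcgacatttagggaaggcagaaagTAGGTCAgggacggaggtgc
In Per3 the D-boxes begin 205 and 158 bases before the start. In Tef the E-box begins 127 bases before the start of this window, 1 of 2 annotated for the gene. In Cry1 the E-prime box, written here from its other strand as AACGTG, begins 79 bases before the start and the E-box 60 bases before it. In Arntl the ROR element lies after the start, from base 31.

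The deposited values were log2 intensities summarised per probe set, with 34.6% to 36.7% of all probe sets at 4 or above per array. The number of arrays, 3 or 4 in a group, limits the precision of every value. All 10 hepatocyte markers, Alb and Ttr among them, passed the filter, whereas none of the 6 T, NK and B cell markers on the array did. Differences were tested with limma across all 9482 genes, each represented by its brightest probe set, and a gene was called where its Benjamini-Hochberg adjusted p was under 0.05. The 3 comparisons with untreated WT share the same 3 untreated arrays, and both comparisons with treated WT share its 4 arrays.

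Against untreated livers, treated WT livers had lower Per3, Cry2, Dbp and Tef and higher Clock. The same 5 genes were called in the same directions in treated mutant livers and in livers of the antibiotic group, where Per2 was also lower. Arntl, the partner of Clock, lay near background, and its call as higher in treated mutant livers is limited by the filter, by overlapping arrays and by its loss in 10 of 15 alternatives. Per1 and Cry1 were called in none of these comparisons. The higher call of Clock in treated WT livers rests on 1 of its 4 probe sets, as described next.

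Among the 9 tested members, 1 was higher and 4 were lower in treated WT against untreated WT, where 35.9% of all tested genes were called higher and 26.7% lower. In treated mutant against untreated WT 2 members were higher and 5 lower, beside 32.6% and 21.5% of all genes. In the antibiotic group against untreated WT 1 was higher and 5 lower, beside 34.5% and 24.3% of all genes. The median log2 difference of the 9 members was -0.59 in treated WT, -0.90 in treated mutant and -0.95 in the antibiotic group, while the median over all genes was 0.10, 0.13 and 0.11. Centring each array on its own median moved these all-gene medians to -0.122 in treated WT, -0.052 in treated mutant and -0.071 in the antibiotic group. Member differences moved down with them, that of Per1 in treated WT from 0.05 to -0.18. The member medians above are for the deposited values and are not to be set beside the centred all-gene medians. Centring also moved the share of called genes that were higher to 42.4%, 43.4% and 44.5%, against 57.4%, 60.3% and 58.6% with the deposited values. The falls of Per3, Cry2, Dbp and Tef and the rise of Clock were called with both scalings in each treated group. The fall of Per2 was called with both scalings in treated mutant and the antibiotic group, and with neither in treated WT.

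**Figure D1:**
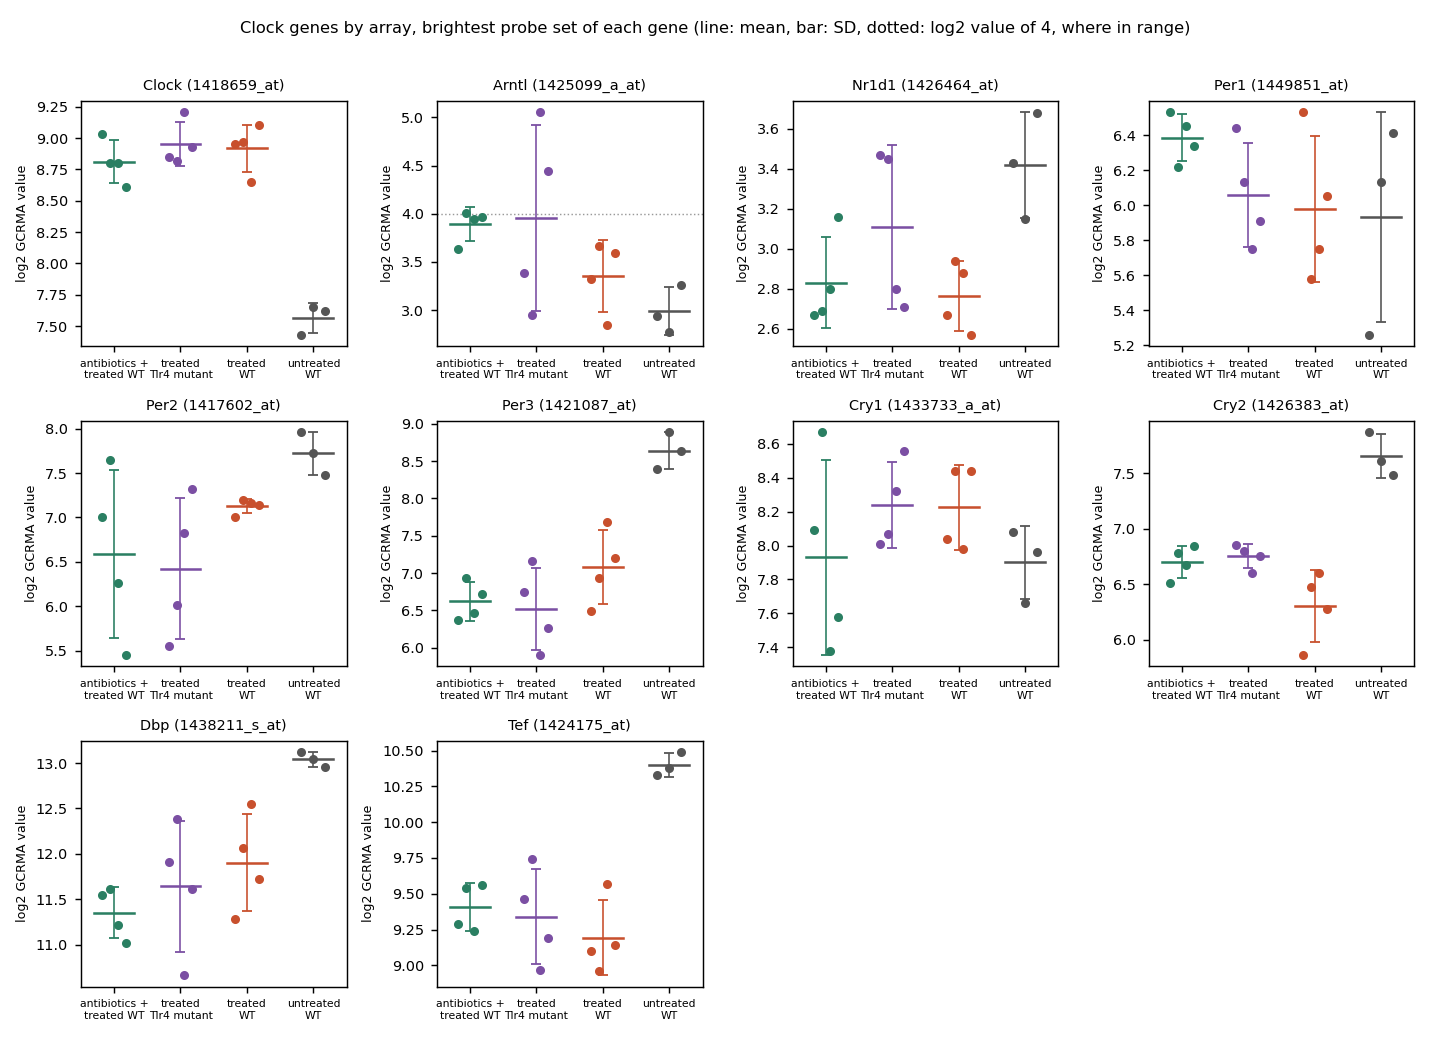
Log2 GCRMA value (vertical axis) of each clock gene's brightest probe set, 1 point per array, in the antibiotic, treated mutant, treated WT and untreated WT groups; lines are group means and bars SD. Per3, Cry2, Dbp and Tef sit lower on all 12 treated arrays than on the 3 untreated ones, and Clock sits higher, while Arntl and Nr1d1 lie close to or under the filter level of 4.

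Bulk liver RNA cannot tell fewer cells of a type from less RNA per cell. The summed level of the 10 hepatocyte markers ranged from 17.03 to 17.19 on the log2 scale in the antibiotic group, from 17.02 to 17.12 in treated mutant, from 16.91 to 17.15 in treated WT and from 17.29 to 17.42 in untreated WT livers. The 11 markers of Kupffer cells and macrophages summed to between 11.50 and 12.43 in the antibiotic group, 10.33 and 10.67 in treated mutant, 12.62 and 13.16 in treated WT, and 9.79 and 11.04 in untreated WT livers. The 5 tested markers of dividing cells summed to between 12.71 and 13.86, 12.83 and 13.18, and 14.02 and 14.23 in those 3 treated groups, against 9.55 to 9.97 in untreated WT livers. The summed hepatocyte markers were lower and the summed dividing-cell markers higher on all 12 treated arrays than on the untreated ones. The macrophage sum in treated mutant overlapped the untreated range, but single macrophage markers there moved in both directions. Against untreated WT 2 of these 11 were called higher and 5 lower in treated mutant (median -0.76). The split was 7 higher and 0 lower in the antibiotic group, and 9 and 0 in treated WT. Of the 10 hepatocyte markers 1 was called higher and 3 lower in the antibiotic group, 0 and 2 in treated mutant, and 0 and 4 in treated WT. Cyp2e1, an ethanol-oxidising cytochrome P450, differed by -2.67, -3.53 and -3.31 in that order. The part of these markers in the results was not tested.

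Clock encodes the DNA-binding partner of BMAL1. Its brightest probe set, 1418659_at, read 9.03, 8.80, 8.80 and 8.61 in the antibiotic group, 8.85, 8.82, 9.21 and 8.93 in treated mutant, 8.95, 8.97, 8.65 and 9.10 in treated WT, and 7.43, 7.65 and 7.62 in untreated WT livers. Every treated array lay above every untreated one. The log2 difference from untreated WT was 1.24 ± 0.14 (SE) in the antibiotic group (adjusted p = 3.11e-06), 1.39 ± 0.14 in treated mutant (adjusted p = 1.47e-06) and 1.35 ± 0.14 in treated WT (adjusted p = 9.7e-07), the last a 2.55-fold difference.

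The other 3 Clock probe sets did not show that step in treated WT livers. Probe set 1418660_at, annotated with the same transcript accession as 1418659_at, read 6.07, 6.30, 6.42 and 6.15 in treated WT livers and 6.09, 6.21 and 6.43 in untreated ones. Its difference was -0.01 ± 0.20 (95% interval -0.43 to 0.42, adjusted p = 0.976 over 15541 probe sets). The differences of 1435775_at and 1439314_at were 0.18 ± 0.23 and 0.17 ± 0.23, neither called, where 59.9% of all probe sets were called in either direction. In treated mutant livers 1418660_at read 7.84, 7.15, 6.83 and 6.93, all above the treated WT and the untreated WT arrays, a difference from untreated WT of 0.94 (adjusted p = 0.00125). Probe set 1435775_at was likewise called there, at 1.04 (adjusted p = 0.00203), and 1439314_at was not, at 0.47, where 51% of all probe sets were called. Probe set 1439314_at read 6.74, 5.83, 5.86 and 5.95 in the antibiotic group, above the 4.63, 5.35 and 4.80 of untreated WT, a difference of 1.17 (adjusted p = 0.000523), where 56% of all probe sets were called. There 1435775_at was called at 0.59 with overlapping arrays (adjusted p = 0.0437), and 1418660_at was not called, at 0.25. With the mean of its 4 probe sets Clock remained called in treated WT, at 0.42 (adjusted p = 0.0161). It was also called in treated mutant, at 0.96, and in the antibiotic group, at 0.81. In treated WT the mean includes 1418659_at, at 1.35, beside -0.01, 0.18 and 0.17 for the other 3. The call of the mean there is therefore not separate from that of 1418659_at.

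**Figure D2:**
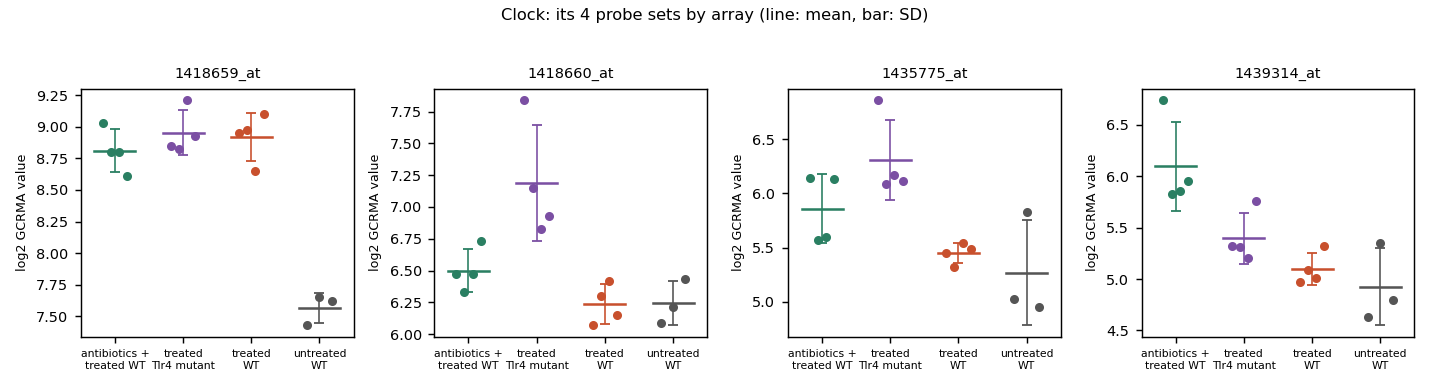
Log2 GCRMA value of the 4 Clock probe sets (panels) by array in the 4 groups, with group means and SD; each panel has its own vertical scale. The step between treated WT and untreated WT appears in 1418659_at and not in the other panels, 1418660_at and 1435775_at are highest in treated mutant, and 1439314_at is highest in the antibiotic group.

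The gap between probe sets within an array was compared directly. The value of 1418659_at minus that of 1418660_at averaged 2.68 (range 2.23 to 2.95) in treated WT livers and 1.32 (1.19 to 1.44) in untreated WT livers. The 2 probe sets thus changed by amounts that differed by 1.36 log2 units, with an exact two-sided permutation p of 0.0286, the smallest that 35 regroupings allow, and 0.0735 after adjustment over the 18 such comparisons made. In treated mutant livers the same gap averaged 1.77 (1.02 to 2.38), 0.91 less than in treated WT (exact permutation p = 0.0571, adjusted 0.114). For 1418659_at minus 1439314_at the gap averaged 2.72 in the antibiotic group and 3.82 in treated WT livers without overlap (exact permutation p = 0.0286, adjusted 0.0735). None of the 18 comparisons had an adjusted p under 0.0735. With these group sizes no exact permutation p can fall under 0.0286. The lack of adjusted values under 0.05 therefore does not show that the gaps were alike.

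Arntl encodes BMAL1. Its probe set 1425099_a_at read 3.63, 4.01, 3.95 and 3.97 in the antibiotic group, 3.38, 2.95, 5.06 and 4.44 in treated mutant, 3.32, 3.67, 2.84 and 3.59 in treated WT, and 2.94, 2.77 and 3.26 in untreated WT livers. It was tested because 3 arrays, mutant replicates 3 and 4 and antibiotic replicate 2, reached a value of 4, so those groups had to stand higher. The mutant arrays split widely and overlapped the untreated ones, whereas all 4 antibiotic arrays lay above them. The difference from untreated WT was 0.97 ± 0.38 in treated mutant (adjusted p = 0.0436), where the floor of 4 allows only at least a 1.3-fold difference. It was 0.90 ± 0.38 in the antibiotic group (adjusted p = 0.0541) and 0.36 ± 0.38 in treated WT (95% interval -0.45 to 1.18). The mutant call held in 5 of 15 alternatives (adjusted p 0.00516 to 0.404). It was lost with centred arrays (0.79), with quantile normalization (0.39), with values under 4 set to 4 (0.37), without the filter and in a fit of only those groups. It was also lost without mutant replicate 3 (0.60) or 4 (0.81) and without any 1 of the 3 untreated arrays (0.86 to 1.1). With quantile normalization the treated WT difference had the opposite sign (-0.50, not called). The second Arntl probe set, 1457740_at, stayed between 1.51 and 1.91 on all arrays and was not tested.

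The Per genes encode the period proteins that carry the repressing arm. Per3, through probe set 1421087_at, read 6.37, 6.94, 6.46 and 6.72 in the antibiotic group, 6.75, 7.16, 5.90 and 6.26 in treated mutant, 6.49, 6.94, 7.69 and 7.20 in treated WT, and 8.39, 8.89 and 8.64 in untreated WT livers. All 12 treated arrays were below all 3 untreated ones. The fall was -2.02 ± 0.29 in the antibiotic group (adjusted p = 4.5e-05), -2.12 ± 0.29 in treated mutant (adjusted p = 3.51e-05) and -1.56 ± 0.29 in treated WT (adjusted p = 0.000341). In treated WT against untreated WT, 4.23% of all tested genes had a lower difference than Per3. For the other called members this share was 5.84% for Cry2, 7.11% for Tef, 7.89% for Dbp and 87.1% for Clock. Of 3 further Per3 probe sets that passed the filter, 1442243_at was lower in the antibiotic group at -1.60, in treated mutant at -1.48 and in treated WT at -1.25, without overlap. Probe set 1458176_at was called lower in the antibiotic group at -1.09 and in treated mutant at -1.12 but not in treated WT (-0.62, adjusted p = 0.104). Probe set 1441445_at was called in the antibiotic group alone, at -1.34, with -0.64 in treated mutant and -0.61 in treated WT. With the mean of the 4 kept probe sets the Per3 falls were -1.51, -1.34 and -1.01 in the antibiotic, mutant and treated WT groups, all still called. Probe sets 1421086_at and 1460662_at lay between 1.51 and 2.90 and were not tested.

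Per2 differed more from array to array. Probe set 1417602_at read 7.0, 7.65, 6.26 and 5.45 in the antibiotic group, 5.55, 6.01, 6.82 and 7.32 in treated mutant, 7.01, 7.20, 7.16 and 7.14 in treated WT, and 7.96, 7.73 and 7.48 in untreated WT livers. Within a group the arrays spanned 2.19 log2 units in the antibiotic group and 1.78 in treated mutant, against 0.19 in treated WT and 0.49 in untreated WT. Treated mutant and treated WT arrays all lay below the untreated ones, and antibiotic replicate 2 overlapped them. The difference from untreated WT was -1.13 ± 0.44 in the antibiotic group (adjusted p = 0.0401), -1.30 ± 0.44 in treated mutant (adjusted p = 0.0232) and -0.59 ± 0.44 in treated WT (95% interval -1.55 to 0.36, adjusted p = 0.258). The mutant call was lost without mutant replicate 1 or 2 or untreated replicate 1 or 2 (adjusted p over 16 alternatives 0.0018 to 0.0743). The antibiotic call was lost without antibiotic replicate 3 or 4 or any untreated replicate, without the filter and in a fit of only those groups (adjusted p over 16 alternatives 0.00675 to 0.119), and its value without antibiotic replicate 4 was -0.75. Probe set 1457350_at was lower in the antibiotic group (-1.05), in treated mutant (-1.42) and in treated WT (-1.07, adjusted p = 0.00303). It passed the filter through antibiotic replicate 2, at 4.25, and the 3 untreated arrays, at 4.63, 4.24 and 5.06, so it had to stand high in untreated livers. Bounded by the floor of 4, these falls were at least 1.49-fold, 1.56-fold and 1.56-fold. A fit of treated WT and untreated WT alone also called the treated WT fall of 1417602_at (adjusted p = 0.00421), and over 16 alternatives its adjusted p ran between 0.00421 and 0.452. Probe set 1417603_at, between 2.25 and 3.56, was not tested.

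Per1, which besides its rhythm responds quickly to hormones and other signals, showed no called difference. Probe set 1449851_at read 6.53, 6.22, 6.45 and 6.34 in the antibiotic group, 6.44, 6.13, 5.75 and 5.91 in treated mutant, 6.53, 5.58, 5.75 and 6.05 in treated WT, and 5.26, 6.13 and 6.41 in untreated WT livers. The untreated arrays alone spanned 1.15 log2 units and overlapped every treated group. The difference from untreated WT was 0.45 in the antibiotic group (95% interval -0.11 to 1.01), 0.12 in treated mutant (-0.44 to 0.69) and 0.05 in treated WT (-0.52 to 0.61).

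The cryptochromes, which bind CLOCK and BMAL1 directly, differed from each other. Cry2, probe set 1426383_at, read 6.51, 6.78, 6.67 and 6.84 in the antibiotic group, 6.85, 6.80, 6.60 and 6.75 in treated mutant, 5.86, 6.47, 6.60 and 6.28 in treated WT, and 7.87, 7.61 and 7.48 in untreated WT livers. No treated array reached the untreated range. The fall was -0.95 ± 0.16 in the antibiotic group (adjusted p = 0.000146), -0.90 ± 0.16 in treated mutant (adjusted p = 0.000268) and -1.35 ± 0.16 in treated WT (adjusted p = 4.41e-06). Cry1, probe set 1433733_a_at, read 8.09, 8.67, 7.38 and 7.58 in the antibiotic group, 8.01, 8.07, 8.32 and 8.56 in treated mutant, 8.04, 8.44, 7.98 and 8.44 in treated WT, and 8.08, 7.66 and 7.96 in untreated WT livers. Its groups overlapped throughout. The differences from untreated WT were 0.03 in the antibiotic group (95% interval -0.52 to 0.57), 0.34 in treated mutant (-0.21 to 0.89) and 0.32 in treated WT (-0.23 to 0.87), none called, although array weights called the last (0.51, adjusted p = 0.0289, with a range over 16 alternatives of 0.0289 to 0.761).

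Nr1d1 encodes REV-ERB alpha, the repressor of Arntl. Its probe set 1426464_at read 2.67, 2.69, 2.8 and 3.16 in the antibiotic group, 3.47, 3.45, 2.8 and 2.71 in treated mutant, 2.67, 2.94, 2.88 and 2.57 in treated WT, and 3.43, 3.15 and 3.68 in untreated WT livers. All of these lie under the filter, so no test was made and no fold is given. Treated WT arrays were below the untreated ones without overlap, and mutant replicates 1 and 2 lay within the untreated range.

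Dbp and Tef, activators of the PAR bZIP family, were lower on every treated array. Dbp, probe set 1438211_s_at, read 11.55, 11.61, 11.22 and 11.02 in the antibiotic group, 11.91, 12.38, 10.66 and 11.61 in treated mutant, 11.28, 12.06, 12.55 and 11.72 in treated WT, and 13.12, 13.04 and 12.96 in untreated WT livers. The untreated arrays lay within 0.16 log2 units of each other, while the treated mutant arrays spanned 1.72. The fall was -1.69 ± 0.34 in the antibiotic group (adjusted p = 0.000662), -1.40 ± 0.34 in treated mutant (adjusted p = 0.00313) and -1.14 ± 0.34 in treated WT (adjusted p = 0.00923), or 3.23-fold, 2.64-fold and 2.20-fold. The second Dbp probe set, 1418174_at, read between 7.40 and 9.31 on treated arrays, against 10.30, 10.37 and 10.26 in untreated WT livers. Its differences were -1.94 in the antibiotic group, -1.98 in treated mutant and -1.69 in treated WT, all called.

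Tef, probe set 1424175_at, read 9.29, 9.54, 9.24 and 9.56 in the antibiotic group, 9.46, 9.74, 8.97 and 9.19 in treated mutant, 9.10, 8.96, 9.57 and 9.14 in treated WT, and 10.33, 10.38 and 10.49 in untreated WT livers. The treated arrays did not reach the untreated ones. The fall was -0.99 ± 0.18 in the antibiotic group (adjusted p = 0.000268), -1.06 ± 0.18 in treated mutant (adjusted p = 0.000187) and -1.21 ± 0.18 in treated WT (adjusted p = 3.66e-05). Probe set 1438033_at fell by more, with differences of -1.64, -1.56 and -1.43 in the antibiotic, mutant and treated WT groups, all called and without overlap. Probe set 1450184_s_at, between 2.29 and 2.99, was not tested.

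**Figure D3:**
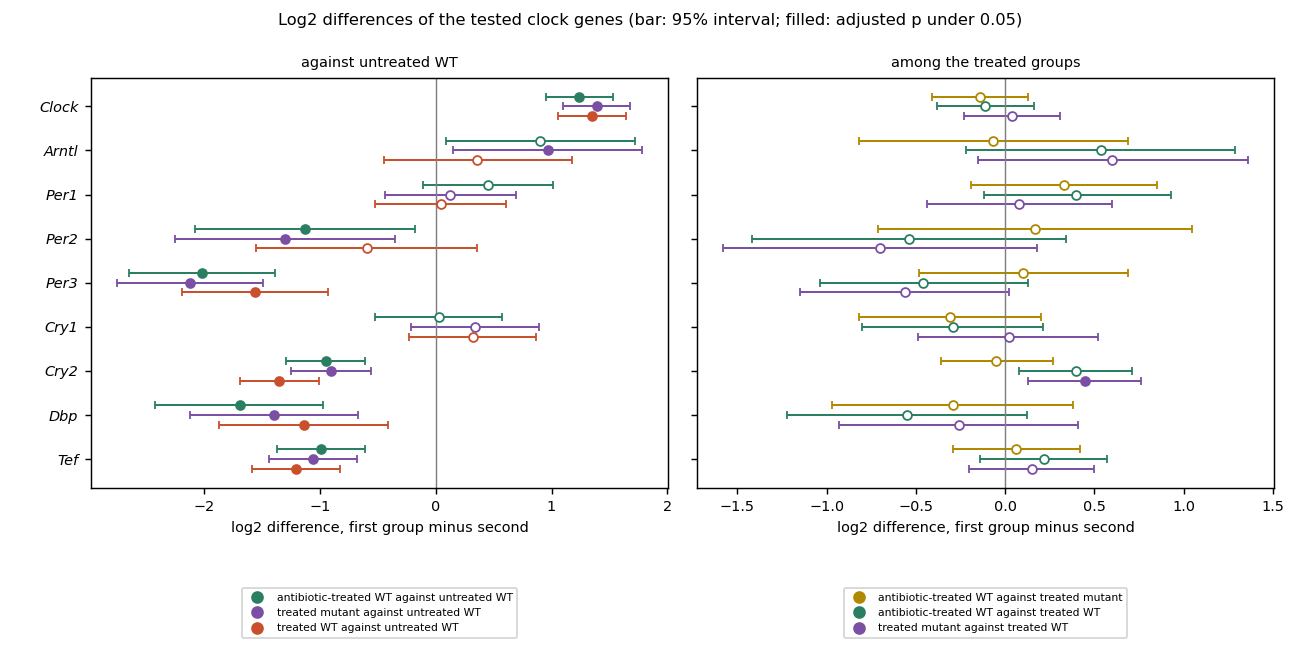
Log2 differences (horizontal axis) with 95% intervals of the 9 tested clock genes, against untreated WT on the left and among the treated groups on the right; filled points have an adjusted p under 0.05. Against untreated WT, Per3, Cry2, Dbp and Tef lie left of 0 and Clock right of 0 in all 3 groups, whereas among the treated groups the 1 filled point is Cry2 in treated mutant against treated WT.

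The treated groups were compared with each other to ask whether Tlr4 status or earlier antibiotics changed the clock genes. In treated mutant against treated WT 1 of the 9 members, Cry2, was called higher and 0 lower, where 13.2% of all genes were higher and 17.6% lower. Cry2 differed by 0.45 ± 0.15 (adjusted p = 0.0326) with arrays that overlapped at 6.60. That call was lost without treated WT replicate 1 or 4 or mutant replicate 1, 2 or 4 and in a fit of only those groups, and its adjusted p ran from 0.0111 to 0.0916 over 17 alternatives. Per2 (-0.70, 95% interval -1.58 to 0.18), Per3 (-0.56, -1.15 to 0.02), Arntl (0.60, -0.15 to 1.36) and Dbp (-0.26, -0.93 to 0.41) were not called, and their intervals span both signs. Without mutant replicate 2 Per3 (-0.78, adjusted p = 0.0461, over 17 alternatives 0.0457 to 0.347) and Arntl (0.94, adjusted p = 0.0416, over 16 alternatives 0.0416 to 0.574) were called. Of the 3 Clock probe sets other than the brightest, 1439314_at was not called (0.30, adjusted p = 0.307, arrays overlapping), and the other two were called higher in treated mutant without overlap, 1418660_at by 0.95 ± 0.18 (adjusted p = 0.0016) and 1435775_at by 0.86 (adjusted p = 0.00886), where 28.6% of all probe sets were called in either direction. The brightest, 1418659_at, differed by 0.04 (95% interval -0.23 to 0.31). With the mean of its 4 probe sets Clock was called higher in treated mutant, at 0.54 ± 0.13 (adjusted p = 0.00611, and 0.00611 to 0.891 over 17 alternatives).

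In the antibiotic group against treated WT 0 of 9 members were called by limma and 1, Cry2, had an unadjusted p under 0.05, where 4.95% of all genes were higher and 9.01% lower. Cry2 differed by 0.40 ± 0.15 (adjusted p = 0.0856, and 0.0363 to 0.211 over 17 alternatives), and was called without treated WT replicate 3 (adjusted p = 0.0493). The Clock probe set 1439314_at was higher by 0.99 without overlap (adjusted p = 0.0085), where 12.3% of all probe sets were called. In the antibiotic group against treated mutant 0 of 9 members were called by limma and 0 had an unadjusted p under 0.05, where 6.88% of all genes were higher and 5.41% lower. There the Clock probe set 1418660_at was lower by -0.69 (adjusted p = 0.0285) and 1439314_at was higher by 0.69 (adjusted p = 0.0472), each without overlap, where 10.5% of all probe sets were called.

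Within groups some of the clock genes varied together. Over the 15 deviations of an array from its group mean, Pearson's r was 0.88 between Per3 and Tef, 0.81 between Per3 and Dbp, and 0.72 between Dbp and Tef. Arntl ran the other way, with r of -0.78 to Dbp, -0.78 to Tef and -0.70 to Per3. The Arntl values lay under 4 on all but 3 of the 15 arrays. The largest Arntl deviations were -1.01 and 1.11, in mutant replicates 2 and 3, whose part in these r values was not tested. Clock too ran opposite to Tef (-0.72) and Cry2 (-0.65). Per2 and Cry1 formed a further pair at r = 0.79, while Per2 had r of -0.01 to Dbp and -0.36 to Tef. Per1 ran opposite to Cry2 (-0.66). Weaker pairs included Per3 with Cry2 (0.60) and Cry2 with Dbp (0.60). Clock had r of 0.56 to Arntl and -0.56 to Per3. Some pairs lay near 0, such as Per1 with Per3 (0.04), Cry1 with Cry2 (0.04), Cry1 with Dbp (0.05) and Per2 with Cry2 (-0.09). The 15 points share arrays, the summarising step and group means taken out, so these values are descriptions without a test.

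Some arrays stood far from their group mean in several of these genes. Mutant replicate 2 stood above its group mean by 0.74 in Dbp, 0.64 in Per3 and 0.40 in Tef, and below it by -1.01 in Arntl. Mutant replicate 3 was the reverse, at -0.98 in Dbp, -0.62 in Per3, -0.37 in Tef and 1.11 in Arntl. Treated WT replicate 3 had 0.65 in Dbp, 0.61 in Per3, 0.38 in Tef and -0.52 in Arntl. Other arrays did not follow this order. Treated WT replicate 1 had -0.62 in Dbp and -0.59 in Per3 with -0.04 in Arntl, antibiotic replicate 1 had 0.20 in Dbp with -0.25 in Per3, and antibiotic replicate 4 had -0.33 in Dbp with 0.15 in Tef. In the antibiotic group the split lay in Per2 and Cry1, with 1.06 and 0.74 in replicate 2 against -1.14 and -0.35 in replicate 4. The 3 untreated arrays deviated by at most 0.09 in Tef and 0.08 in Dbp.

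**Figure D4:**
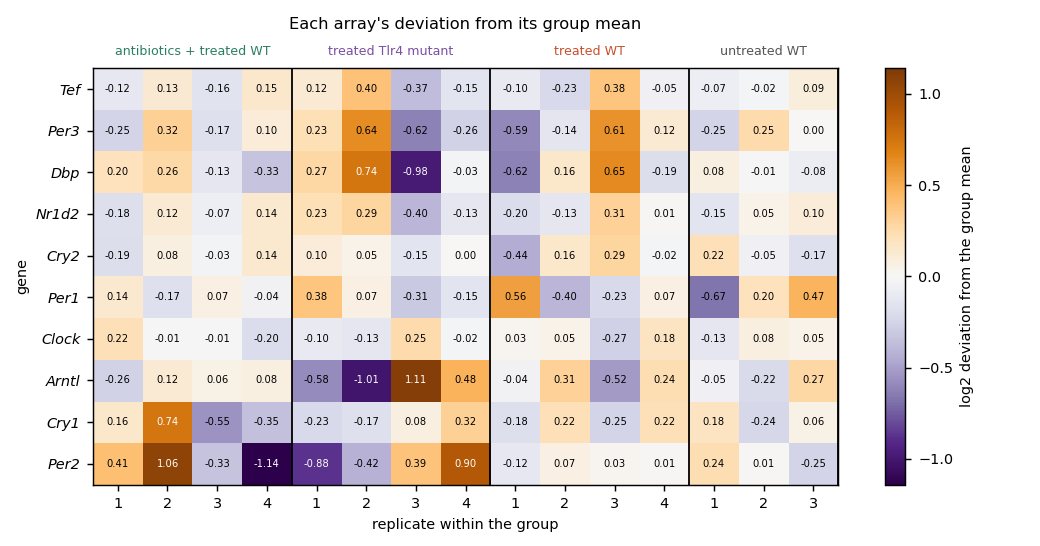
Deviation of each array (columns, grouped) from its group mean in log2 units for the 9 tested clock genes and Nr1d2 (rows); orange is above and purple below the mean. Mutant replicate 2 and treated WT replicate 3 are high in Tef, Per3 and Dbp and low in Arntl, mutant replicate 3 shows the reverse, and antibiotic replicates 2 and 4 part in Per2 and Cry1.

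Among the tested genes outside the members, the closest to Per3 in these 15 deviations was Nr1d2 (r = 0.941), which encodes REV-ERB beta, the close relative of the Nr1d1 product. Nr1d2 was second closest to Tef (r = 0.935), after Deptor (0.936). To Clock the closest was BC003965 (0.94), to Per1 Rassf7 (0.933), and to Cry2 Ate1 and Zfand3 (0.913 each). These genes, like those below, were picked for the highest r among the tested genes. Such a choice by itself favours high values, and none of them was tested. The closest to Dbp were Dsg2 (0.926) and Tgfbr1 (0.905), to Arntl Ndufab1 (0.904) and Sdhaf4 (0.899), to Per2 Gca (0.939) and Abhd16a (0.937), and to Cry1 Oxnad1 (0.948) and Lrrc58 (0.934). Over the 15 log2 values themselves, in which the groups differ, the closest were Atp2b2 to Clock (0.989), 0610005C13Rik to Cry2 (0.979), Bnip3 to Tef (0.973), Hao1 to Per3 (0.952) and Osbpl8 to Dbp (0.921).

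Further genes of the loop were taken from a list with 10 genes on the array, of which 6 passed the filter and Npas2, Arntl2, Rorb and Bhlhe41 did not. In treated WT against untreated WT 0 of the 6 were higher and 5 lower, with a median of -0.67, beside 35.9% and 26.7% of all tested genes. Hlf, the third PAR bZIP activator, differed by -0.98 ± 0.16 (adjusted p = 0.000111), and Nfil3, the repressor that competes at D-boxes, by -0.98 ± 0.25 (adjusted p = 0.00343). Nr1d2 was lower by -0.67, the repressor Bhlhe40 by -0.67, and Rora, the activator at ROR elements, by -0.60. In treated mutant against untreated WT 0 were higher and 4 lower (32.6% and 21.5% of all genes), among them Bhlhe40 (-0.74), Nr1d2 (-0.71) and Ciart (-0.58), a repressor of CLOCK and BMAL1. In the antibiotic group 0 were higher and 4 lower (34.5% and 24.3% of all genes), with Nr1d2 at -0.99, Rora at -0.68 and Nfil3 at -0.61. For this and the following lists, centred arrays and quantile normalization were checks chosen after seeing the data. With centred arrays 6, 6 and 5 of the 6 were lower in treated WT, treated mutant and the antibiotic group.

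Hlf differed among the treated groups. It read 8.37, 8.22, 8.39 and 8.13 in the antibiotic group, 8.09, 8.56, 8.26 and 8.01 in treated mutant, 7.31, 7.89, 7.93 and 7.91 in treated WT, and 8.64, 8.80 and 8.77 in untreated WT livers. Treated WT arrays were the lowest and overlapped neither of the other treated groups. Hlf was higher by 0.47 in treated mutant (adjusted p = 0.0287) and by 0.52 in the antibiotic group (adjusted p = 0.0336), each against treated WT. Rora was higher by 0.40 in treated mutant against treated WT (adjusted p = 0.024) and lower by -0.48 in the antibiotic group against treated mutant (adjusted p = 0.0205), with no other gene of the list called among the treated groups.

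Of 8 tested modifiers of clock proteins, 1 was higher and 4 lower in treated WT against untreated WT, beside 35.9% and 26.7% of all genes. Usp2, a deubiquitinase with a strong liver rhythm, differed by -1.20, the deacetylase Sirt1 by -0.80 and the kinase subunit Csnk2a1 by -0.35, while Fbxw11, a ubiquitin ligase subunit, was higher by 0.28. Its relative Btrc passed the filter through antibiotic replicate 1 and the 3 untreated arrays, so it had to stand high in untreated livers, and its fall in treated WT was at least 1.27-fold (adjusted p = 0.00172). With centred arrays the split was 0 higher and 5 lower. The antibiotic group had 0 higher and 3 lower, with Usp2 at -0.73, beside 34.5% and 24.3% of all genes, and treated mutant 1 and 3, with Usp2 at -1.28, beside 32.6% and 21.5%. Among the treated groups limma called 0 of 8 in any of the 3 comparisons, and 1 had an unadjusted p under 0.05 in the antibiotic group against treated WT, 2 against treated mutant, and 0 in treated mutant against treated WT.

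A further list held genes of rhythmic liver output. Of 15 tested, 2 were higher and 8 lower in treated WT against untreated WT (median -1.28), 1 and 8 in treated mutant (median -0.83), and 1 and 8 in the antibiotic group (median -0.88). Over all genes the shares were 35.9% and 26.7%, 32.6% and 21.5%, and 34.5% and 24.3% in the same order. Rgs16, a regulator of G protein signalling, read 3.36, 3.52, 4.16 and 7.44 in the antibiotic group, 2.83, 8.27, 3.38 and 3.23 in treated mutant, 3.27, 3.54, 4.62 and 3.15 in treated WT, and 8.80, 9.76 and 9.84 in untreated WT livers. Antibiotic replicate 4, at 7.44, and mutant replicate 2, at 8.27, lay below the untreated arrays. The other 10 treated arrays were lower still, at 4.62 or below. The Rgs16 difference was at least 23.7-fold lower in the antibiotic group (adjusted p = 0.00238), at least 21.1-fold in treated mutant (adjusted p = 0.00211) and at least 39.7-fold in treated WT (adjusted p = 0.000517), each with group means bounded by the floor of 4.

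Other output genes were lower too. Elovl3, a fatty acid elongase, differed by -4.36 in the antibiotic group, -2.14 in treated mutant and -3.25 in treated WT. Upp2, a uridine phosphorylase, differed by -3.82, -3.66 and -2.98 in the same order. Cyp7a1, which starts the main route from cholesterol to bile acids, differed by -2.14, -3.59 and -2.47. Cyp2b10, a drug-metabolising cytochrome P450, was called higher in treated WT, by 2.57 ± 0.77 (adjusted p = 0.00981), and not in treated mutant (0.67) or the antibiotic group (0.80), but neither of these differed from treated WT past the threshold (Cyp2b10 adjusted p = 0.0578 and 0.114). The other called rise was that of Pdk4, a kinase that limits glucose oxidation, named after its values were seen. It was at least 3.63-fold higher in the antibiotic group (adjusted p = 0.000415), 3.13-fold in treated mutant (adjusted p = 0.00111) and 2.42-fold in treated WT (adjusted p = 0.00391). Pdk4 lay under 4 on all untreated arrays, so it passed the filter through treated arrays and had to stand higher there. Among the treated groups Nampt, the NAD salvage enzyme, was higher by 0.73 and Alas1, the first enzyme of haem synthesis, by 0.49 in treated mutant against treated WT (13.2% of all genes higher, 17.6% lower). Against treated WT the antibiotic group had Nr1i3, the receptor CAR, higher by 1.13 and Wee1, a cell cycle kinase, lower by -1.01 (4.95% and 9.01% of all genes). Against treated mutant it had Elovl3 lower by -2.22 and Nampt lower by -0.52 (6.88% and 5.41% of all genes).

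**Figure D5:**
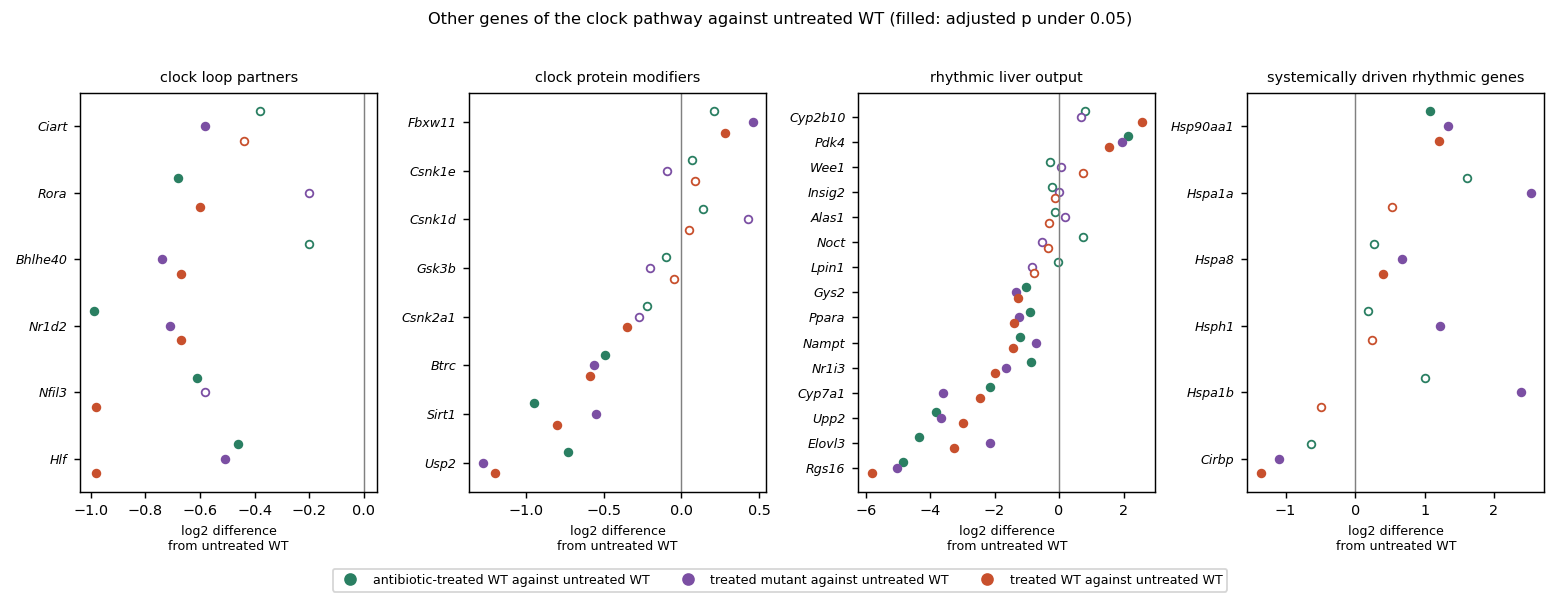
Log2 differences from untreated WT (horizontal axes, a scale for each panel) of the tested genes in 4 lists of the clock pathway, for the antibiotic, treated mutant and treated WT groups; filled points have an adjusted p under 0.05. All filled points of the loop partners lie below 0, Rgs16, Elovl3, Upp2 and Cyp7a1 are the lowest among output genes, and Hspa1a and Hspa1b are highest in treated mutant.

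The last list held rhythmic genes known to follow body temperature and other systemic cues, of which 6 were tested. In treated WT against untreated WT 2 were higher, Hsp90aa1 by 1.21 and Hspa8 by 0.40, and 1 lower, the cold-induced Cirbp, by at least 2.12-fold. Over all genes 35.9% were higher and 26.7% lower. In treated mutant 5 were higher and 1 lower (32.6% and 21.5% of all genes), with the chaperones Hspa1b at 2.39, Hsp90aa1 at 1.34 and Hspa1a at least 2.14-fold higher. The antibiotic group had 1 higher, Hsp90aa1 at 1.08, and 0 lower (34.5% and 24.3% of all genes). Treated mutant against treated WT had 3 higher and 0 lower (13.2% and 17.6% of all genes), namely Hspa1b by 2.88 (adjusted p = 0.000117), Hsph1 by 0.98 and Hspa1a. Hspa1a lay under 4 on all untreated arrays, so it passed the filter through treated arrays and had to stand higher there. It also lay under 4 on 3 of 4 treated WT arrays and on 2 mutant arrays. Its difference from treated WT is therefore at least 1.96-fold (adjusted p = 0.0492), with overlapping arrays. The antibiotic group had Hspa1b higher by 1.5 against treated WT, and Hspa1b lower by -1.38 and Hsph1 lower by -1.03 against treated mutant. Hspa1a and Hspa1b are near-identical genes whose probe sets may share signal. The list's median of 0.32 in treated WT against untreated WT became -0.05 with quantile normalization.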

How the data were processed

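Biotin-labelled RNA from 15 liver samples, prepared with a 3′IVT kit, was read on Affymetrix mouse arrays, per the labels' protocols. The deposited table holds log2 values per probe set, which the authors made with GCRMA, per the submitters' processing notes; its version and settings are not given in the sources used here. GCRMA subtracts a background estimated from probe sequence, so values near background are the least precise. No scanner files, batches or scan dates were used. Values were not rescaled. The table has 45101 probe sets, of which 34945 have 1 gene symbol, 932 several and 9160 none in the platform annotation. The probe set with the highest mean stood for a gene, and a gene was kept where a value of 4 was reached on at least 3 arrays (9482 genes). Group means over all 15 arrays were fitted with limma 3.58.1 (lmFit, eBayes) in R 4.3.3, with Benjamini-Hochberg adjustment over all kept genes of a comparison, or over 15541 kept probe sets. The code was tested on simulated data. Per array values, figures and motif searches used Python 3.11.15, pandas 2.3.3 and matplotlib 3.10.9. Where 1 group lay under 4, the fold was bounded by setting values under 4 to 4. All 10 members were named with each probe set. Of each list, up to 5 called genes with the largest difference were named in treated WT against untreated WT and up to 3 elsewhere, except that genes already named were also given in other groups. The 3 most similar genes per member came from Pearson's r. The members and lists were chosen with earlier results of these data known. A description in the labels that gives other ages and a liver resection contradicts the other fields and was not used. Alternatives covered scaling, floor, filter, probe set choice, array weights, prior, the groups in the fit and each array left out.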

Additional observations from a re-analysis of the deposited data

Results flagged for a closer look

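Of the 54 sets of 4 arrays examined (18 kept member probe sets in 3 groups), 4 held an array far from the other 3 by Dixon's criterion, which chance gives in about 1 of 20. Arntl (1425099_a_at) read 3.63 in antibiotic replicate 1, against 3.95 to 4.01 in the others of that group. The Clock probe set 1435775_at read 6.86 in treated mutant replicate 1, against 6.09 to 6.17. The Clock probe set 1439314_at read 6.74 in antibiotic replicate 1, against 5.83 to 5.95. The Per3 probe set 1458176_at read 6.38 in treated WT replicate 3, against 5.52 to 5.53.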

How the results depend on the processing

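The number of members called against untreated WT stayed within 1.5 times under every alternative run, and leaving out an array gave 5 of 9 each time for treated WT, 5 to 6 for treated mutant and 5 to 6 for the antibiotic group. For treated mutant against treated WT the count was 1, and it was 2 with the mean of the kept probe sets, 2 with array weights, 0 in a fit of only those groups, and 0 to 2 without 1 array. For the antibiotic group against treated WT the count was 0, and it was 1 with quantile normalization, 1 with array weights, and 0 to 1 without 1 array; against treated mutant it was 0 throughout. For single genes 893 values kept their direction and call, 17 gained a call, 34 lost it and 49 changed sign, of which 46 were called in neither setting; the cause was not tested. The 3 with a call in either setting were Clock probe sets, 1418660_at in treated WT against untreated WT (-0.01) and 1439314_at in the antibiotic group against treated WT (0.99) and treated mutant (0.69). The others changed sign against untreated WT with centred arrays for Per1 in treated WT (-0.18) and mutant (-0.06) and Cry1 in the antibiotic group (-0.15), with quantile normalization for the same (-0.41, -0.19, -0.13) and Arntl in treated WT (-0.50), with array weights for Per1 (-0.08, -0.02), and, with ranges over the left-out arrays, for Per1 in treated WT (-0.29 to 0.28) and mutant (-0.21 to 0.36) and Cry1 in the antibiotic group (-0.22 to 0.21). In treated mutant against treated WT they did with array weights for Clock (-0.06) and Cry1 (-0.08), without 1 array for Dbp (-0.50 to 0.07), Clock (-0.05 to 0.10), Cry1 (-0.09 to 0.10) and Per1 (-0.06 to 0.26), and by another probe set for Tef (-0.13). In the antibiotic group against treated WT they did for Clock with the probe set mean (0.39) and other probe sets (0.26, 0.41), and by another probe set for Tef (-0.21) and Per2 (0.01). Against treated mutant they did with the probe set mean for Tef (-0.01) and Per3 (-0.17), without 1 array for Tef (-0.06 to 0.20), Per3 (-0.10 to 0.32), Per2 (-0.18 to 0.55), Cry2 (-0.10 to 0.01) and Arntl (-0.40 to 0.30), and by another probe set for Dbp (0.03), Tef (-0.08) and Per3 (-0.71, -0.11). The calls of Per3, Cry2, Dbp, Tef and Clock against untreated WT held in all 16 alternatives other than single probe sets. No paired analysis was possible because the labels number the arrays 1 to 15 across the groups and share no replicate number. Values near 4 (Arntl, Nr1d1, Per2 1457350_at) are limited by background.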
